A study of Mus musculus with 8 samples.

Results

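The genes described here encode 10 enzymes, most of which clear reactive alcohols, aldehydes, ketones or epoxides. Among them are the alcohol dehydrogenases Adh7 and Adh5, the aldehyde dehydrogenase Aldh2 and the aldo-keto reductases Akr1b3 and Akr1b8. The others are the carbonyl reductases Cbr1 and Cbr3, the alkenal reductase Ptgr1, the epoxide hydrolase Ephx1 and the biliverdin and flavin reductase Blvrb. The members were matched by symbol, and all 10 were found among the 35976 genes of the table. The members were selected on their enzyme class with their values in the comparison of Atad2 shRNA with control shRNA already known. Their differences between these groups are therefore given as a description, with no test.

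The study sequenced total RNA from C2C12, a mouse skeletal myoblast line, in 8 libraries. In 4 libraries the cells had received an shRNA against Atad2, a chromatin-bound ATPase with a bromodomain, and in the other 4 a non-targeting shRNA. All cells were lysed 48 h after transfection, and no further treatment is labelled. How many shRNA sequences were used is not labelled. Nor do the labels tell whether replicates are separate cultures, so the spread behind every p-value may be technical. The labels describe no rescue and no further shRNA group, so loss of Atad2 and other effects of this shRNA cannot be told apart.

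Small alcohols, aldehydes and ketones arise in cells from lipid peroxidation, sugar and amino acid breakdown and retinoid metabolism, and many of them react with proteins and DNA. Alcohol dehydrogenases interconvert alcohols and aldehydes with NAD, and aldehyde dehydrogenases carry aldehydes on to acids. Aldo-keto reductases and carbonyl reductases use NADPH to turn carbonyl groups into alcohols, alkenal reductases saturate the reactive double bond next to a carbonyl, and epoxide hydrolases open epoxides into diols. Several genes of these classes are known in mouse as targets of NRF2 (gene Nfe2l2), the transcription factor that answers electrophiles and is held back by KEAP1.

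Levels below are log2(normalised count + 1), where the normalised count is the read count divided by a size factor of the library. Log2 fold changes are Atad2 shRNA over control shRNA, with the SE of limma, a linear model fitted across all genes with moderated variances. The recovered depth was 50.3 to 72.3 Mreads (megareads) per Atad2 library and 61.4 to 73.0 Mreads per control library (61.7 ± 10.4 against 66.6 ± 4.80, SD, n = 4 each, exact two-sided permutation p = 0.457). Atad2 itself lay at 11.77 to 12.05 in the Atad2 libraries and at 14.61 to 14.74 in the control libraries. Of 10 myoblast markers, 10 were detected, 8 of them with at least 100 reads in every library, among them Myod1, Des and Cdh15. Of 10 hepatocyte markers none reached more than 30 reads in any library, and Ttr, Fgb and Cyp2e1 had none. Atad2 replicate 3, the shallowest library, stood apart from the other 7 on the second principal component (8.29% of the variance). Without it no member moved by more than the spread within groups: the log2 fold changes defined above were then 2.49 for Adh7, 2.00 for Ptgr1, 1.49 for Blvrb, 0.65 for Akr1b8 and -0.46 for Ephx1, and that of Akr1b3 changed sign (0.00042).

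The letters just before the start sites are shown for Adh7 with Adh5 and for Cbr3 with Cbr1, pairs of related genes in which the groups were separated for the first gene and overlapped for the second. Akr1b8 and Akr1b3 form another such pair, but no window was given for Akr1b3. Each sequence holds the 110 bases before the RefSeq start site on GRCm38.p6, written 5′ to 3′ on the strand of the gene. Capitals mark matches to TGACTCA (the AP-1 site, to which FOS, JUN and related factors bind) and to GGGCGG (the GC box), on either strand.
Adh7, chr3:138217663-138217772, plus strand: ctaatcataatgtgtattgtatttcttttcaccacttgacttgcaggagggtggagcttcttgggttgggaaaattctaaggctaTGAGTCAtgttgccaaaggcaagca
Adh5, chr3:138442983-138443092, plus strand: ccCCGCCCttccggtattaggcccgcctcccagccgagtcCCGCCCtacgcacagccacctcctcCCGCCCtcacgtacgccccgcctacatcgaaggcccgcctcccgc
Cbr3, chr16:93683109-93683218, plus strand: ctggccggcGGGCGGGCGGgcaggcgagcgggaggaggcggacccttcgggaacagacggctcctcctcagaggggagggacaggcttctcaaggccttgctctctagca
Cbr1, chr16:93607727-93607836, plus strand: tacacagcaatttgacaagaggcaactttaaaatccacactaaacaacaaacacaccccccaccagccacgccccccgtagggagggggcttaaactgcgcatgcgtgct

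Promoter windows were given for 8 members, all but Akr1b3 and Aldh2. Adh5 and Blvrb had 2 windows each, and only the window nearest the GENCODE start was used. In the window used for each member, the 250 bases before the start were searched on both strands for 5 motifs. The antioxidant response element core TGACNNNGC, the DNA motif of NRF2, was found in 0 of the 8 windows and in 10.2% of all 32851 promoter windows. TGACTCA was found in the Adh7 window alone of the 8, 19 to 25 bases before the start, and in 4.46% of all windows. GGGCGG was present in 5 members (Adh5, Akr1b8, Cbr3, Ptgr1 and Blvrb) and in 32.7% of all windows, TATAAA in 3 (Adh7, Akr1b8 and Ephx1) and 12.4%, and CCAAT in 3 (Adh7, Ptgr1 and Ephx1) and 33.8%. The Adh7 window held 38% G and C and the Adh5 window 63.6%, against a median of 52.4% over all windows. The RefSeq starts of Cbr1 and Ephx1 lie well inside the spans of these genes in GENCODE, which also lists transcripts that begin further upstream. For Ephx1, on the minus strand, the RefSeq start is at 181017569 and the GENCODE span reaches 181020904. The starts of Adh7, Akr1b8, Cbr3 and Ptgr1 lie inside their spans by fewer bases. These matches describe letters in a short window and say nothing of binding.

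All 10 members were well measured, with 1403 to 35013 reads in every library, and all 10 lay above the limit of a mean log2 level of 3. The SD within a group was 0.02 to 0.15, with a median of 0.06. In 5 members the Atad2 libraries all lay above the control libraries, in 1 they all lay below, and in 4 the groups overlapped. Over the 14703 genes above that limit, 27.7% were higher without overlap and 25.8% lower without overlap. The median log2 fold change was 0.38 over the members and -0.01 over all genes tested. Since RNA was taken from bulk cultures, more cells that express a gene and more RNA per cell cannot be told apart.

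**Figure D1:**
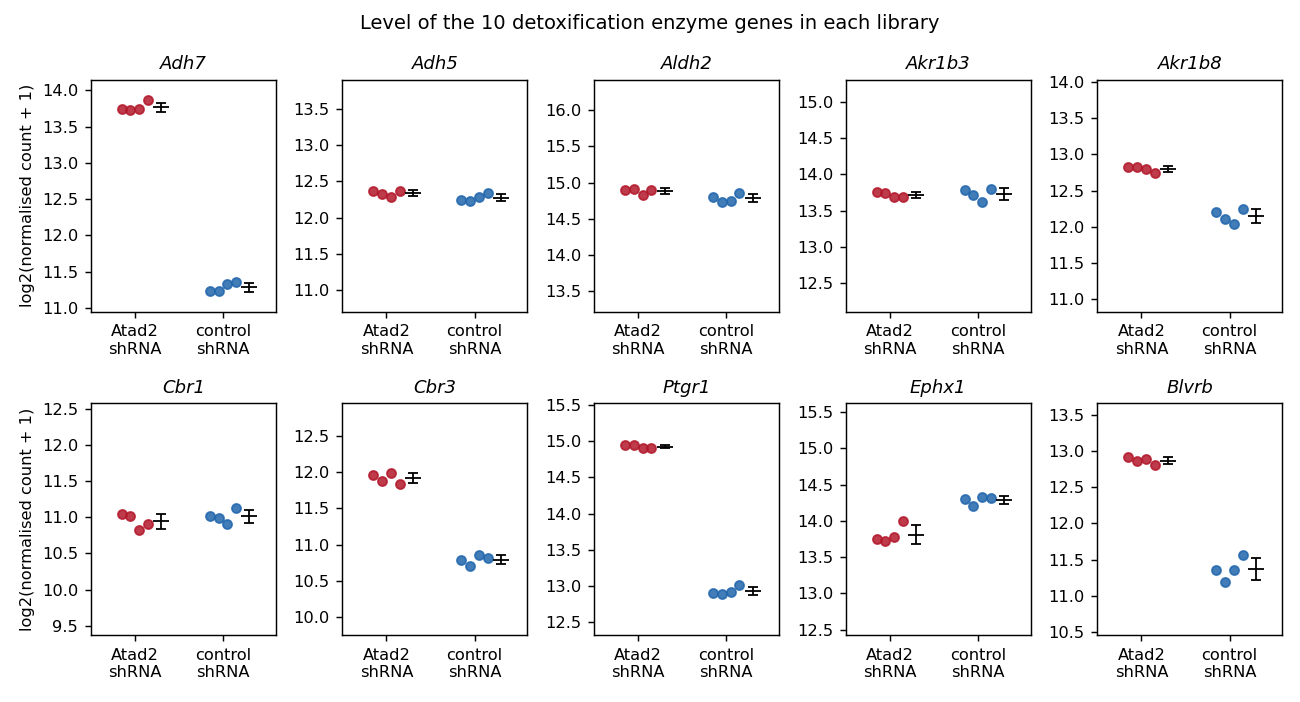
Level of each member in every library, as log2(normalised count + 1), with the Atad2 shRNA libraries in red, the control shRNA libraries in blue, and the mean ± SD (n = 4 each) beside them. All panels span the same number of log2 units, and Adh7, Akr1b8, Cbr3, Ptgr1 and Blvrb are separated upward and Ephx1 downward, while Adh5, Aldh2, Akr1b3 and Cbr1 overlap.

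Both alcohol dehydrogenases lie on chromosome 3 (GRCm38). Adh7 (138217760 to 138233382, plus strand) encodes the class IV enzyme, which oxidises retinol and medium-chain alcohols and is best known from the lining of the upper digestive tract. Its level was 13.74, 13.73, 13.74 and 13.86 in the Atad2 libraries, against 11.23, 11.23, 11.32 and 11.35 in the control libraries. The groups were separated by 2.38 log2 units, the widest gap among the 10 members. The log2 fold change was 2.48 ± 0.04, or 5.59-fold, with 10638 to 14959 reads per Atad2 library and 2387 to 3079 per control library. A gene annotated on the opposite strand, 0610031O16Rik, overlaps Adh7, and the strand setting of the counting is not given in the sources used here. Aldh2 and Akr1b3 are likewise overlapped by genes on the opposite strand (Gm42879 and Gm14546).

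Adh5 (138443093 to 138455499, plus strand) encodes the class III enzyme, which oxidises the glutathione adduct of formaldehyde and reduces S-nitrosoglutathione. It stood at 12.37, 12.33, 12.28 and 12.37 in the Atad2 libraries, against 12.25, 12.23, 12.28 and 12.34 in the control libraries. These values overlap, and the log2 fold change was 0.06 ± 0.04. With quantile normalization it was -0.03. Per exon length, Adh7 had 1.26 ± 0.05 times the level of Adh5 in the Atad2 libraries and 0.235 ± 0.004 times in the control libraries (SD, n = 4 each), so the order of this pair was turned round.

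The pair is 209.7 kb apart, with the 4 protein-coding genes Adh1, Adh6a, Adh6b and Adh4 between them. Adh1, the class I enzyme that oxidises ethanol in liver, was weak and fell, with 39 to 95 reads per Atad2 library against 138 to 235 per control library (log2 fold change -1.36 ± 0.24, limma adjusted p = 5.48e-05). Adh6a and Adh6b had no read in any library. Adh4 had none in the Atad2 libraries and at most 10 in a control library.

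Aldh2 (chromosome 5, 121566027 to 121593824, minus strand) encodes the mitochondrial enzyme that oxidises acetaldehyde and products of lipid peroxidation. It was strongly expressed in both groups, at 14.90, 14.91, 14.83 and 14.90 in the Atad2 libraries and at 14.80, 14.73, 14.75 and 14.86 in the control libraries. The lowest Atad2 library lay below the highest control library, and the log2 fold change was 0.10 ± 0.03. This sign was not kept with quantile normalization, where the value was -0.02.

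Akr1b8 and Akr1b3 are neighbours on chromosome 6, 36.6 kb apart. Akr1b8 (34354119 to 34368463, plus strand) encodes an aldo-keto reductase first described in mouse as a protein induced by fibroblast growth factor, and it reduces aldehydes and ketones of many kinds. It lay at 12.82, 12.82, 12.80 and 12.74 in the Atad2 libraries, against 12.20, 12.11, 12.04 and 12.25 in the control libraries. All Atad2 libraries stood above all control libraries, by at least 0.49, and the log2 fold change was 0.65 ± 0.04 (1.57-fold).

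Akr1b3 (34302434 to 34317478, minus strand) is the mouse aldose reductase, which turns glucose into sorbitol and also reduces lipid aldehydes. It was nearly level between the groups, at 13.76, 13.74, 13.68 and 13.69 in the Atad2 libraries and at 13.79, 13.72, 13.62 and 13.79 in the control libraries (-0.01 ± 0.04). This value is uncertain, since 55.2% of the 50-base words of the Akr1b3 transcripts also occur in transcripts of other annotated genes, chiefly the predicted genes Gm6644, Gm6736 and Gm12138. For Akr1b8 that share was 3.21%, mostly words held in common with Akr1b10. Per exon length, Akr1b8 had 0.540 ± 0.011 times the level of Akr1b3 in the Atad2 libraries and 0.342 ± 0.006 times in the control libraries.

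Cbr1 and Cbr3 encode NADPH-dependent carbonyl reductases of the short-chain dehydrogenase family, which reduce quinones and ketones, and lie 72.7 kb apart on chromosome 16. Cbr3 (93683215 to 93690990, plus strand) stood at 11.96, 11.87, 11.99 and 11.84 in the Atad2 libraries, against 10.79, 10.71, 10.86 and 10.81 in the control libraries. The groups were separated by 0.985 log2 units, and the log2 fold change was 1.13 ± 0.05 (2.18-fold). Cbr1 (93605853 to 93610505, plus strand) had 11.04, 11.02, 10.82 and 10.91 in the Atad2 libraries, against 11.01, 10.996, 10.91 and 11.12 in the control libraries. These values overlapped, with a log2 fold change of -0.06 ± 0.06. Per exon length, Cbr3 had 2.08 ± 0.21 times the level of Cbr1 in the Atad2 libraries and 0.909 ± 0.074 times in the control libraries. Less than 4% of the 50-base words of either gene occur elsewhere (3.97% for Cbr1 and 0.089% for Cbr3).

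Ptgr1 (chromosome 4, 58965439 to 58987119, minus strand) encodes prostaglandin reductase, which saturates the double bond of alkenals and alkenones, the lipid peroxidation product hydroxynonenal and oxidised prostaglandins among them. It lay at 14.94, 14.95, 14.91 and 14.90 in the Atad2 libraries, against 12.91, 12.89, 12.92 and 13.02 in the control libraries. No Atad2 library came within 1.88 log2 units of a control library. The log2 fold change was 1.99 ± 0.03, or 3.98-fold, with 23905 to 34439 reads per Atad2 library and 7546 to 9813 per control library. None of its 50-base words was found in another gene.

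Ephx1, the microsomal epoxide hydrolase gene (chromosome 1, 180976210 to 181020904, minus strand), was the only member whose Atad2 libraries all lay below the control libraries. It stood at 13.76, 13.72, 13.78 and 14.00 in the Atad2 libraries, against 14.31, 14.20, 14.32 and 14.31 in the control libraries. The gap between the groups was 0.20, and the log2 fold change was -0.47 ± 0.05, which made the level 1.39-fold lower in Atad2 libraries. Atad2 replicate 4 was the nearest of its group to the controls. A gene annotated on the same strand, Gm36961, overlaps Ephx1, and 1.70% of the 50-base words of Ephx1 also occur in it.

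Blvrb (chromosome 7, 27447978 to 27466144, plus strand) encodes an NADPH-dependent reductase of flavins and of the beta isomer of biliverdin, a product of heme breakdown. Its values were 12.91, 12.86, 12.89 and 12.80 in the Atad2 libraries, against 11.35, 11.19, 11.36 and 11.56 in the control libraries. The groups were 1.24 log2 units apart, with a log2 fold change of 1.499 ± 0.055 (2.83-fold). The control libraries of Blvrb spread more widely (SD 0.15) than those of any other member.

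**Figure D2:**
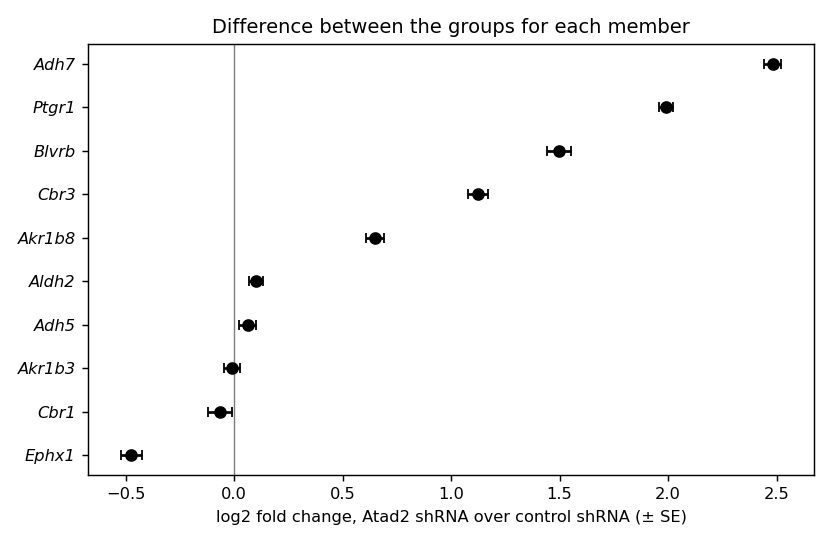
Log2 fold change of each member (Atad2 shRNA over control shRNA, horizontal axis) with its SE as bars, 4 libraries per group. Values run from -0.47 for Ephx1 to 2.48 for Adh7, and Aldh2, Adh5, Akr1b3 and Cbr1 lie within about 0.1 of zero.

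Levels of different genes were compared as normalised counts per kb of exon, with exon lengths from the GENCODE M21 basic annotation. In the Atad2 libraries Ptgr1 came first at 13557 ± 230 per kb (SD, n = 4), then Akr1b3 at 9702 ± 251, Ephx1 at 8289 ± 748 and Aldh2 at 7289 ± 183. Blvrb at 5280 ± 179 and Akr1b8 at 5240 ± 133 overlapped each other, followed by Adh7 at 4065 ± 180. Cbr3 at 3303 ± 159 and Adh5 at 3229 ± 95.8 overlapped too, and Cbr1 came last at 1597 ± 112. The other neighbours in this order did not overlap in any library.

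In the control libraries the order per kb began with Ephx1 at 11480 ± 451, Akr1b3 at 9788 ± 541 and Aldh2 at 6792 ± 270. Ptgr1 at 3411 ± 145, Akr1b8 at 3348 ± 219 and Adh5 at 3094 ± 107 followed, each overlapping the next. Blvrb at 1875 ± 198, Cbr1 at 1670 ± 100 and Cbr3 at 1514 ± 66.3 also overlapped in turn, and Adh7 was last at 727 ± 31.3. Ptgr1 was thus first in the Atad2 libraries and in rank 4 in the control libraries, and Adh7 had rank 7 in the Atad2 libraries and rank 10 in the control libraries.

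**Figure D3:**
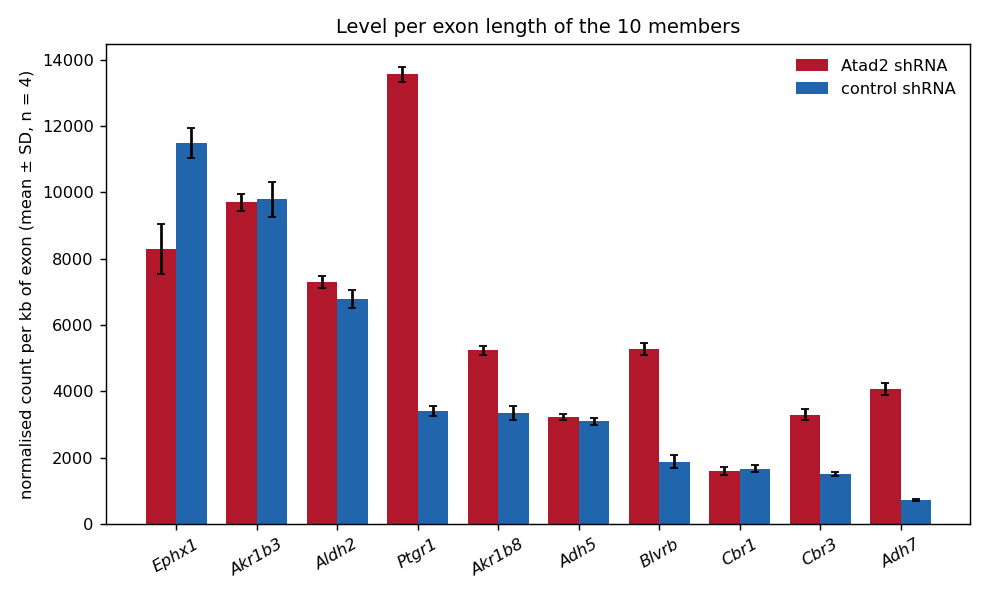
Normalised count per kb of exon for the 10 members (mean ± SD, n = 4 per group), with the Atad2 shRNA bar left of the control shRNA bar, ordered by the control level. Ptgr1 reached 13557 per kb in the Atad2 libraries against 3411 in the control libraries, and Adh7 reached 4065 against 727.

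Together the 10 genes took 1977 ± 32.7 RPM (scaled to the total of each library) in the Atad2 libraries and 1426 ± 49.0 RPM in the control libraries (SD, n = 4 each), a ratio of 1.39. As summed normalised counts, the scale of the levels and fold changes above, the ratio was 1.46. Within this sum, which is not corrected for length, Ptgr1 made up 24.2 ± 0.50% in the Atad2 libraries and 8.89 ± 0.18% in the control libraries. Adh7 made up 10.8 ± 0.40% and 2.83 ± 0.10% in the same order. The shares of Aldh2 (23.5 ± 0.33% against 32.0 ± 0.15%) and Ephx1 (11.2 ± 0.93% against 22.7 ± 0.75%) were lower in the Atad2 libraries. Within the control group the members of a library often lay on the same side of their means: in control replicate 4 all 10 lay above their group means and in control replicate 2 none did, with medians of 0.07 and -0.05 log2 units. In the Atad2 group 8 members lay above their means in replicate 1 and 3 in replicate 3. Control replicate 4 was the deepest library of its group (73.0 Mreads) and control replicate 2 the shallowest (61.4 Mreads). Atad2 replicate 1 was likewise the deepest of its group (72.3 Mreads) and Atad2 replicate 3 the shallowest (50.3 Mreads). The part of depth in these deviations was not tested.

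Further genes were listed from the enzyme families of the members, taken as whole families, and from related enzymes. Glyoxal and formaldehyde clearance partners (6 tested, 1 higher, 3 lower) and aldehyde and xanthine oxidases (4 tested, 4 higher) hold no member. Across all the lists together, called the listed families below, the Atad2 libraries had more genes lower than higher. Of 90 further genes listed, 89 were in the table and 65 were expressed enough to be tested. Among them 15 rose, 25 fell and 25 did not pass (limma, Benjamini-Hochberg adjusted p under 0.05). These are 23.1% and 38.5% of the 65, against 30.8% of all 14703 tested genes higher and 29.6% lower. Their median log2 fold change was -0.08, beside -0.01 over all genes tested. At least a 2-fold difference was seen for 4 that rose, Aox3 among them, and 9 that fell, Akr1c12 among them. The share of all tested genes with such a difference was not counted, so nothing about the families is read from these counts. Aox3 and Akr1c12 each passed the minimum mean only through the group in which it was higher. The tests below share the 8 libraries with the member values.

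Aldehyde dehydrogenases other than Aldh2 mostly fell: 9 of 13 tested genes fell, 3 rose and 1 did not pass. Aldh3a1, which oxidises aromatic and medium-chain aldehydes and is abundant in cornea, reached 16.03 ± 0.11 in the Atad2 libraries against 13.14 ± 0.07 in the control libraries (2.89 ± 0.04, 7.40-fold, limma adjusted p = 8.77e-21). Its difference was larger than that of any member. Aldh1a3, which makes retinoic acid, rose by 1.30 ± 0.21 at 57 to 194 reads per library, and Aldh16a1 rose by 0.69 ± 0.05. The genes with the largest falls were Aldh1l1, of folate metabolism (-2.61 ± 0.30), Aldh3b1 (-1.41 ± 0.15) and Aldh6a1, of valine breakdown (-1.06 ± 0.08), all with limma adjusted p of at most 4.81e-04 in every alternative run. Aldh1l1 was weak, with 10 to 32 reads per Atad2 library and 116 to 153 per control library. Its mean level was 4.40 in the Atad2 libraries and 7.01 in the control libraries. Aldh1a1 had 0 reads in every Atad2 library and 11 to 26 in the control libraries, below the level needed for the test.

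Among 7 further aldo-keto reductases tested, 1 rose and 3 fell. The falling genes include Akr1c12, which passed the minimum mean of 3 only through the control group. Akr1c14, a hydroxysteroid dehydrogenase, rose by 0.55 ± 0.12, while Akr1c13 and Akr1b10 changed by -1.29 ± 0.18 and -0.28 ± 0.08, and Akr1c genes share long stretches of sequence. Akr1a1, the general aldehyde reductase, stood at 14.58 ± 0.06 in the Atad2 libraries and 14.54 ± 0.06 in the control libraries and did not pass (limma adjusted p = 0.310). Its sign changed with quantile normalization (-0.07). Of 19 other short-chain dehydrogenases, 4 fell, 3 rose and 12 did not pass. Cbr2, which like Cbr1 and Cbr3 is a carbonyl reductase, fell to 10.79 ± 0.09 in the Atad2 libraries, against 11.91 ± 0.11 in the control libraries (-1.12 ± 0.06, limma adjusted p = 3.77e-13). Dcxr, which reduces dicarbonyls and xylulose, and the retinal reductase gene Dhrs3 changed by -1.39 ± 0.14 and -1.16 ± 0.10. Dhrs7b, Rdh13 and Rdh11 rose by 0.36, 0.29 and 0.18.

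Of 9 alkenal, alkenone and quinone reductases other than Ptgr1, 1 rose, 4 fell and 4 did not pass. Nqo1, the quinone reductase gene, rose to 14.66 ± 0.05 in the Atad2 libraries, against 13.50 ± 0.06 in the control libraries (1.16 ± 0.03, limma adjusted p = 1.48e-16). Ptgr2, the relative of Ptgr1 that reduces keto-prostaglandins, changed by -0.29 ± 0.05, Cryzl1 by -0.20 ± 0.07 and Mecr, of mitochondrial fatty acid synthesis, by -0.14 ± 0.05. The Cryzl1 call was lost without Atad2 replicate 3 and without the variance trend, and the Mecr call without control replicate 1 (limma adjusted p up to 0.0640 and 0.0752). Ephx2, the soluble epoxide hydrolase, had 0 to 1 reads per Atad2 library and 3 to 20 per control library and was too weak for the test. Neither of the other 2 epoxide hydrolases tested passed.

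Among the heme oxygenase and biliverdin reductase genes, Hmox1, the inducible heme oxygenase, rose to 14.75 ± 0.17 in the Atad2 libraries, against 13.92 ± 0.12 in the control libraries (0.83 ± 0.06, limma adjusted p = 4.05e-10). The constitutive Hmox2 rose by 0.18 ± 0.05. Blvra, which reduces the main isomer of biliverdin, fell by 0.21 on the log2 scale to 10.09 ± 0.07, against 10.30 ± 0.08 in the control libraries (limma adjusted p = 0.00621).

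Esd, whose product completes the formaldehyde route begun by Adh5, rose to 15.80 ± 0.04 in the Atad2 libraries, against 15.05 ± 0.05 in the control libraries (0.75 ± 0.03, limma adjusted p = 4.33e-14). Glo1, the first enzyme of methylglyoxal clearance, had 12.86 ± 0.05 and 12.87 ± 0.05 in the same order and did not pass (limma adjusted p = 0.722). With quantile normalization it was called lower (-0.12). Hagh, the second enzyme of that route, its relative Haghl and Glrx, which encodes glutaredoxin, changed by -0.21 ± 0.07, -0.58 ± 0.11 and -0.16 ± 0.05. All 4 tested oxidases rose: the aldehyde oxidase gene Aox1 (0.53 ± 0.05), the sulfite oxidase gene Suox (0.28 ± 0.05), Xdh, xanthine dehydrogenase (0.20 ± 0.08), and Aox3. Aox3 had a mean level of 4.54 in the Atad2 libraries and 2.36 in the control libraries, so it passed the minimum mean of 3 only through the Atad2 group, and it is not tested with a minimum of 5. The Xdh call was lost under 8 of 17 alternatives, among them leaving out Atad2 replicate 3 or 4 or control replicate 2 or 3 (limma adjusted p up to 0.171).

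**Figure D4:**
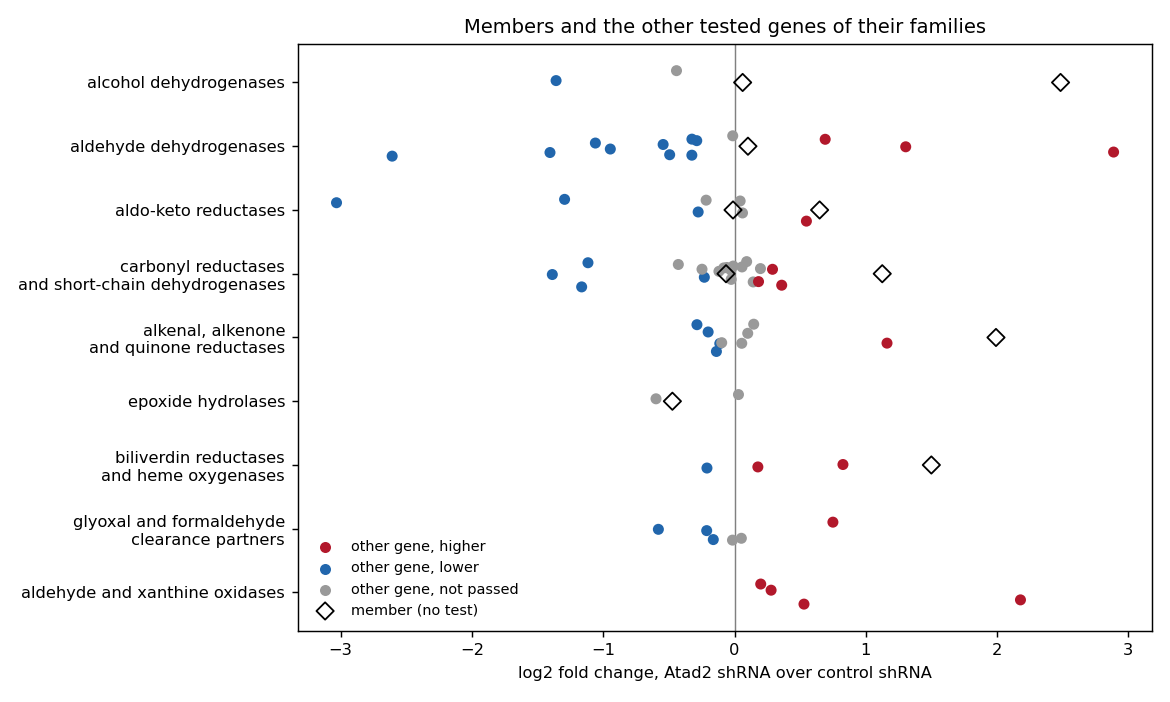
Log2 fold change (Atad2 shRNA over control shRNA) of the 10 members, as open diamonds without a test, and of 65 other tested genes. These other genes of the listed families are dots in red (higher, limma adjusted p under 0.05), blue (lower) or grey (not passed). The dots have vertical jitter for visibility. In the aldehyde dehydrogenase row 9 dots are blue and 3 red, while the members lie between -0.47 and 2.48.

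Nfe2l2 and Keap1, which encode NRF2 and its inhibitor, had smaller differences than the members whose groups did not overlap. Nfe2l2 rose to 13.67 ± 0.01 in the Atad2 libraries, against 13.33 ± 0.07 in the control libraries (0.34 ± 0.03, limma adjusted p = 3.58e-08), and Keap1 rose by 0.22 ± 0.04 (limma adjusted p = 2.43e-04). Their part in the member values was not tested.

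The summed levels of the myoblast, epithelial, macrophage, adipocyte and endothelial marker lists did not overlap between the groups. Of all 14703 tested genes, taken singly, 27.7% were higher and 25.8% lower without overlap, and 30.8% were called higher and 29.6% lower. The 10 myoblast markers summed to 71051 to 76152 normalised counts in the Atad2 libraries and 66307 to 70251 in the control libraries, with 4 genes called higher and 6 lower. The summed normalised counts of 10 epithelial markers were 1894 to 2255 in the Atad2 libraries and 4523 to 4834 in the control libraries, with Krt14 the only marker at 100 or more reads in every library and Epcam and Esrp1 at 0. For 10 macrophage markers the sums were 555 to 685 in the Atad2 libraries and 253 to 321 in the control libraries, with Cd68 the only marker at that level and Adgre1, C1qa, C1qb and Tyrobp at 0. Sums for 10 adipocyte markers were 4159 to 4670 and 3530 to 3862, with Pparg, Lipe and Car3 at 100 or more reads in every library and Adipoq, Lep, Retn and Cfd at 0, and for 10 endothelial markers 156 to 186 and 266 to 300.03, with Egfl7 the only marker at 100 or more reads in every library and Tie1, Emcn, Cldn5 and Erg at 0, in the same order of groups. Although the adipocyte sums were higher in the Atad2 libraries, 1 of the 4 adipocyte markers tested was called higher and 3 lower. The part of these lists in the member values was not tested, while the hepatocyte markers summed to at most 4.57 in the Atad2 libraries and 9.33 in the control libraries.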

How the data were processed

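Total RNA libraries from C2C12 cells were sequenced in 2 groups of 4. Per the submitters' processing notes, the tools named were HTSeq 0.13.5, SAMtools 1.1, bcl2fastq 2.20 and DESeq2 without a version, and the build mm10. Aligner, annotation and strand setting: not given in the sources used here. As the authors deposited them, the values are size-factor normalised read counts on a log2(x + 1) scale, to 3 decimals. No label states that form, and it rests on the values themselves: 100% of the low values of each library lay on whole multiples of 1 step (tolerance 0.1 reads), from which reads were recovered. High read counts are approximate.

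Genes with a mean above 3 were fitted with limma 3.58.1 in R 4.3.3 (lmFit, eBayes with intensity trend, no covariates). Tests were two-sided, with Benjamini-Hochberg adjustment over all genes tested. The procedure was also run on simulated counts with far fewer changed genes than were called here. That run does not measure error rates in these data. Summaries used pandas 2.3.3, SciPy 1.17.1 and NumPy 2.4.6 under Python 3.11.15, with matplotlib 3.10.9 for plots. Positions, exon lengths and shared 50-base words came from GENCODE M21 (GRCm38, the assembly of mm10), promoters from RefSeq (GRCm38.p6). A floor of 3 reads corresponds to 0.0411 to 0.0596 RPM and covers counting error only.

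The members and the gene lists were chosen with earlier results of these data known. Named were all members, Atad2, 12 fixed family genes, Nfe2l2, Keap1, and up to 3 called genes per family and direction with the largest differences at a mean of at least 5. Alternatives were limma-voom on recovered reads, quantile normalization, median centring, an offset of 8 on the linear scale, a minimum mean of 5, no filter, a robust prior, no variance trend, the replicate block, each library left out, and an adjusted p under 0.01.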

Additional observations from a re-analysis of the deposited data

Results flagged for a closer look

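Among 90 groups of 4 values (45 named genes in each group), 4 held a library whose gap to the nearest other value took up most of the range of its group, and chance alone flags about 1 in 20 such groups. Adh7 stood at 13.861 in Atad2 replicate 4, against 13.730 to 13.740 in the other Atad2 libraries. Aldh2 was at 14.831 in Atad2 replicate 3, against 14.902 to 14.907. In the control group, Ephx1 was at 14.200 in replicate 2, against 14.306 to 14.324 in the others, and Cbr2 was at 11.752 in replicate 3, against 11.942 to 11.978. The Atad2 and control libraries did not overlap for Adh7, Ephx1 or Cbr2, and they did for Aldh2.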

How the results depend on the processing

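Over 18 alternatives, 14 to 18 further family genes rose and 21 to 30 fell, against 15 and 25 as reported. All genes called numbered 3805 to 4568 higher and 3480 to 4717 lower, against 4528 and 4352. All these counts stayed within 1.5 times the reported ones. Over 14 alternatives, 7290 to 8800 genes did not overlap between the groups, against 7870. Same-numbered libraries of the groups did not deviate together throughout (correlations of -0.09 to 0.22, with Atad2 replicate 3 alone closest to its own number), so the numbers were not taken as pairs. The fit with the replicate block called 4562 genes higher and 4379 lower, and 15 and 25 family genes. Of the members, Aldh2 and Adh5 changed sign with quantile normalization (-0.0186 and -0.03). Both moved by more than the spread within groups with that setting, toward lower values. So did Adh7, Akr1b3, Akr1b8, Ptgr1 and Ephx1 (2.40, -0.12, 0.56, 1.88 and -0.59). No other alternative moved a member by more than that spread, though the sign of Akr1b3 changed under 3 of 17. Of the named family genes, the calls of Cryzl1, Mecr and Xdh were lost under 2, 1 and 8 alternatives, Glo1 was called under 1 (quantile normalization), and no call was reversed. The cause of the quantile shifts was not tested. Every member had at least 1403 reads in each library, while some family genes were too weak for the test. The part of depth in the member values was not tested. The reads of Akr1b3 cannot be assigned with certainty.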

Other observations

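Outside the naming rule, and chosen after their values were seen, 2 weak genes of the listed families had larger differences than most members. Akr1c12 had 1 to 15 reads per Atad2 library and 59 to 82 per control library (log2 fold change -3.03 ± 0.56). Aox3, an aldehyde oxidase gene, had 14 to 29 reads per Atad2 library and 1 to 11 per control library (2.18 ± 0.57). Both values rest on few reads, and for Akr1c12 sequence shared within its gene cluster makes the assignment uncertain.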
